A study of Mus musculus with 3 samples.

Results

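The 10 genes for acetylcholine receptors that are described here are Chrm1 to Chrm5, which encode the muscarinic receptors M1 to M5, and Chrna2, Chrna3, Chrna4, Chrna7 and Chrnb2, which encode subunits of neuronal nicotinic receptors. They were taken by name from the 31055 genes of the raw count matrices, and the list was drawn up with earlier results of these data known. Their RNA was followed across the 22 clusters of 31703 nuclei and the 10 subclusters of 7504 of these nuclei.

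The data are single-nucleus RNA counts of the olfactory bulb (OB) of 3 male C57Bl/6 mice aged 7 weeks, with 1 library per mouse. All 3 mice had received the same retrogradely transported virus, rAAV-retro-CAG-H2B-GFP, in the piriform cortex and in the anterior olfactory nucleus, so there is 1 group and no untreated control. The CAG promoter is not restricted to a cell type, and GFP-positive nuclei of the injected side were sorted, so that neurons with axons in these areas were enriched. The question put to these genes was which classes and types of bulb cell carry RNA of which receptor, with the mice as replicates.

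Acetylcholine reaches the OB through axons of the basal forebrain. Muscarinic receptors act through G proteins: M1, M3 and M5 couple to Gq and phospholipase C, which closes M-type potassium channels, while M2 and M4 couple to Gi and Go, which lower cyclic AMP and open inwardly rectifying potassium channels. Nicotinic receptors are pentameric cation channels. The alpha7 subunit can form a channel alone, alpha4 assembles with beta2, and alpha3 assembles with beta4 or beta2 and may take up alpha5 as an accessory subunit.

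Mice 1, 2 and 3 gave 5845, 21105 and 4753 nuclei with 58526996, 213891496 and 62929479 unique molecular identifiers (UMIs, which number the RNA molecules captured). Clusters carry no names in the deposited table. Names ending in "-like" were given here from marker genes, namely inhibitory-neuron-like for 10 clusters, projection-neuron-like for 5, and a glial class for 5 (astrocyte, olfactory ensheathing glia, oligodendrocyte, oligodendrocyte precursor and microglia), while clusters 18 and 21 stayed unnamed. Of the subclusters, 7 carried markers of mitral (M1, M2, M3), tufted (T1) or external tufted (ET1, ET2, ET4) types, 1 was periglomerular-like, and subclusters 2 and 8 were not named. The M1-like library of mouse 1 stands apart in size, with 14 nuclei and 161593 UMIs against 465 and 207 nuclei in mice 2 and 3. Levels below are UMIs per 1000000 UMIs (CPM) of the nuclei of 1 mouse and cluster, given as mean ± SD over the mice, and they are compared between cells but not between genes.

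Over all nuclei, 119887 UMIs were counted for Chrm2, 76279 for Chrm3, 9185 for Chrm1, 6986 for Chrna7, 3740 for Chrnb2 and 1483 for Chrna3. Chrna4 had 275 UMIs, Chrm4 189, Chrna2 182 and Chrm5 2. The 2 UMIs of Chrm5 lay in 1 nucleus of mouse 1. For Chrm4 and Chrm5 the annotation holds a single exon that ends at the stop codon, with no 3′ untranslated region beyond it. The reads of this assay come from the 3′ end of transcripts, so a low count of these genes does not tell a low level from an unannotated end. Chrm5, Chrm4 and Chrna2 did not pass the filter on low counts in the fit across projection neuron types, which left 7 of the 10 genes tested among 14696. Chrm2, Chrm3, Chrnb2 and the partner gene Chrnb4 each overlap a counted gene on the opposite strand (9330158H04Rik, Gm26861, Adar and Gm47877), and the sources used here do not state whether strand was used in counting, so their reads may not be told apart. Nor do they state whether reads from introns were counted, which in nuclei bears on how many UMIs a long gene gathers (Chrm3 spans 485362, Chrm2 140331 and Chrna7 113878 bases). The fit across clusters also tested these 7, among 16622 genes, and the fit of projection against inhibitory neurons tested 9, among 18088.

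The 4 muscarinic genes tested, Chrna2 and Chrna7 were lower, and Chrna3 and Chrna4 higher, in projection neurons than in inhibitory neurons. Nuclei of the 7 projection neuron types were summed per mouse and set against all inhibitory-neuron-like nuclei, and a gene was called at an adjusted p under 0.05 with an absolute log2 fold change above 1. Subclusters 2, 8 and 9 entered neither side, and no alternative included them. Subcluster 2 held 4851, 2684 and 368 UMIs of Chrm2, Chrm3 and Chrm1, against 2390, 3397 and 363 in the 7 types. Of the 9 genes tested 8 were called, where 29.3% of all genes were. Of these, 2 were higher in projection neurons and 6 lower, where 15.4% and 13.9% of all genes were called in these directions. Chrm2 stood at 13.8, 32.0 and 14.5 CPM in the projection neurons of mice 1, 2 and 3 and at 599, 576 and 586 CPM in the inhibitory neurons. The classes did not overlap, and their difference on the log2 scale was -4.78 (SE 0.34, adjusted p = 1.63e-05, edgeR). Chrm1 fell in the same direction by 3.64 (SE 0.23), from 47.9, 43.3 and 39.9 to 3.14, 4.41 and 2.18 CPM. For Chrm3 the log2 fold change was -3.56 (SE 0.46), with 350, 356 and 391 CPM in inhibitory and 10.2, 41.3 and 35.9 CPM in projection neurons. Chrm4 (-1.57, SE 0.34) and Chrna2 (-2.46, SE 0.44) were called lower on 27 and 16 UMIs in projection neurons. Of the 159 inhibitory UMIs of Chrna2, 111 lay in cluster 8 alone. Without that cluster Chrna2 stood at 0.144, 0.314 and 0.243 CPM in inhibitory and at 0.129, 0.135 and 0.211 CPM in projection neurons, and it did not pass the filter. Chrna7 was lower by 1.05 on the log2 scale (log2 fold change -1.05, SE 0.18), and without mouse 3 the value was -0.99, short of the threshold on the fold change. With cluster 8 left out of the inhibitory neurons, a check added after the data were seen, Chrna7 was at -0.69, also short of it, and the other 6 calls held.

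Chrna3 stood at 6.27, 12.1 and 12.3 CPM in projection neurons and at 1.21, 1.09 and 1.88 CPM in inhibitory neurons (log2 fold change 3.01, SE 0.33, adjusted p = 0.000142, edgeR). Chrna4 differed by 2.74 (SE 0.22, adjusted p = 2.95e-05, edgeR), at 1.85, 1.76 and 1.76 CPM against 0.303, 0.264 and 0.284 CPM. In these class sums every projection neuron value of both genes lay above every inhibitory one, but single groups did not follow the sums. Of the 184 projection neuron UMIs of Chrna4, 166 lay in the ET2-like and ET4-like types, and the T1-like, M1-like and M2-like means of 0.221, 0.106 and 0.035 CPM were under every inhibitory sum. For Chrna3 the T1-like, ET4-like and ET1-like types had means of 0.807, 0.803 and 0.219 CPM, under the inhibitory sums, and inhibitory-neuron-like cluster 8, at 12.9, 6.55 and 9.73 CPM, was above the projection neuron value of mouse 1. Chrnb2, which encodes the partner subunit of alpha4, was within the threshold on the fold change, at 0.38 (SE 0.12, adjusted p = 0.0291, edgeR).

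Each class hides differences between its clusters. All 7 genes tested differed between the 21 clusters with at least 10 nuclei in each mouse, where 86.0% of all genes did. The clusters had been formed on the same counts, so p-values across clusters or types describe how far the groups differ and do not test that the groups exist. With each cluster set against the mean of the others, 28 of 147 tests were called higher and 16 lower, against 9.28% and 5.63% of the tests over all genes.

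Among the Gq-coupled receptors, Chrm3 had its highest level in inhibitory-neuron-like cluster 12, at 2024, 2329 and 2260 CPM in mice 1, 2 and 3. Cluster 10 followed at 1291, 1130 and 1505 CPM and cluster 8, whose leading genes include Calb1 and Foxp2, at 1036, 882 and 863 CPM. These levels fell in the same order in each mouse, although neighbours in the order did not differ in the test of the pair. In cluster 8, 457 of 1356 nuclei had at least 10 UMIs of Chrm3 and held 84.1% of its UMIs there. The other 899 nuclei of cluster 8 held 255 CPM. Nuclei of clusters 12 and 10 with fewer than 10 UMIs of Chrm3 held 889 and 678 CPM. Clusters 7 and 15 held 481 ± 47.1 and 419 ± 51.8 CPM, clusters 0, 1 and 6 held 198 to 208 CPM, cluster 3 held 116 ± 28.3 CPM and cluster 17 held 42.1 ± 20.2 CPM (SD, n = 3 mice). The 5 clusters 12, 10, 8, 7 and 15 were called higher than the mean of the others, and 6 clusters lower, 3 of them projection-neuron-like (2, 4 and 5). Without mouse 1 the calls of clusters 11, 15, 17 and 19 were lost (adjusted p from 0.0623 to 0.225, edgeR), and those of clusters 11 and 19 also without mouse 3 (adjusted p = 0.132 and 0.0741, edgeR). Chrm3 is among the 10 leading genes of cluster 12, so its level there describes the cluster.

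Chrm1 had another order. It stood at 65.9, 55.4 and 63.6 CPM in cluster 1, at 52.6, 54.3 and 65.1 CPM in cluster 12 and at 62.5, 49.6 and 43.6 CPM in cluster 0, and these clusters overlapped. Clusters 10, 3, 17 and 8 followed at 43.2 ± 3.96, 37.1 ± 2.84, 35.6 ± 4.48 and 28.2 ± 3.72 CPM. Clusters 6, 7 and 15 were lower, at 10.9 to 16.7 CPM, close to the glia-like clusters (6.05 to 14.8 CPM), and the projection-neuron-like clusters held 3.80 to 6.36 CPM. Chrm1 was called higher in 6 clusters, all of them inhibitory-neuron-like, and lower in the 5 projection-neuron-like ones. Cluster 13 lost its call without mouse 2 (log2 fold change -1.05, adjusted p = 0.0667, edgeR), and cluster 17 without mouse 1 (1.03, adjusted p = 0.121, edgeR).

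Of the Gi-coupled receptors, Chrm2 was highest in inhibitory-neuron-like cluster 3, at 1625, 1391 and 1581 CPM, and it is among the 10 leading genes of that cluster, which is also marked by Tpbg and Syt10. Cluster 6 followed at 715, 801 and 668 CPM, below cluster 3 in each mouse, although the test of the pair did not pass (1.23, SE 0.62, adjusted p = 0.157, edgeR). Clusters 10, 0, 12 and 1 held 384 to 535 CPM. Cluster 0, the largest, differed least between mice, at 511, 512 and 511 CPM. Clusters 8, 15, 7 and 17 held 103 to 219 CPM, close to the 80.3 to 200 CPM of the glia-like clusters. Clusters 3, 6, 10, 0, 12 and 1 were called higher, and the projection-neuron-like clusters 2, 5 and 13 lower. The calls of clusters 1, 2, 5 and 12 were lost without mouse 1, with adjusted p from 0.0563 to 0.0929 (edgeR). Cluster 1 also lost its call with DESeq2 (adjusted p = 0.0730) and cluster 12 without mouse 3 (adjusted p = 0.0815, edgeR). Chrm2 and Chrm3 thus had different highest clusters: cluster 3, with the highest Chrm2, held 142, 120 and 86.3 CPM of Chrm3, while cluster 12 held 394, 433 and 541 CPM of Chrm2.

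Chrm4 reached its highest mean in any cluster at 1.58 ± 1.05 CPM in the astrocyte-like cluster, on 7 UMIs, and stood at 1.32 ± 0.777 CPM in cluster 3 on 28. Cluster 0 held 69 of its 189 UMIs, at 1.15, 1.09 and 0.987 CPM.

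**Figure D1:**
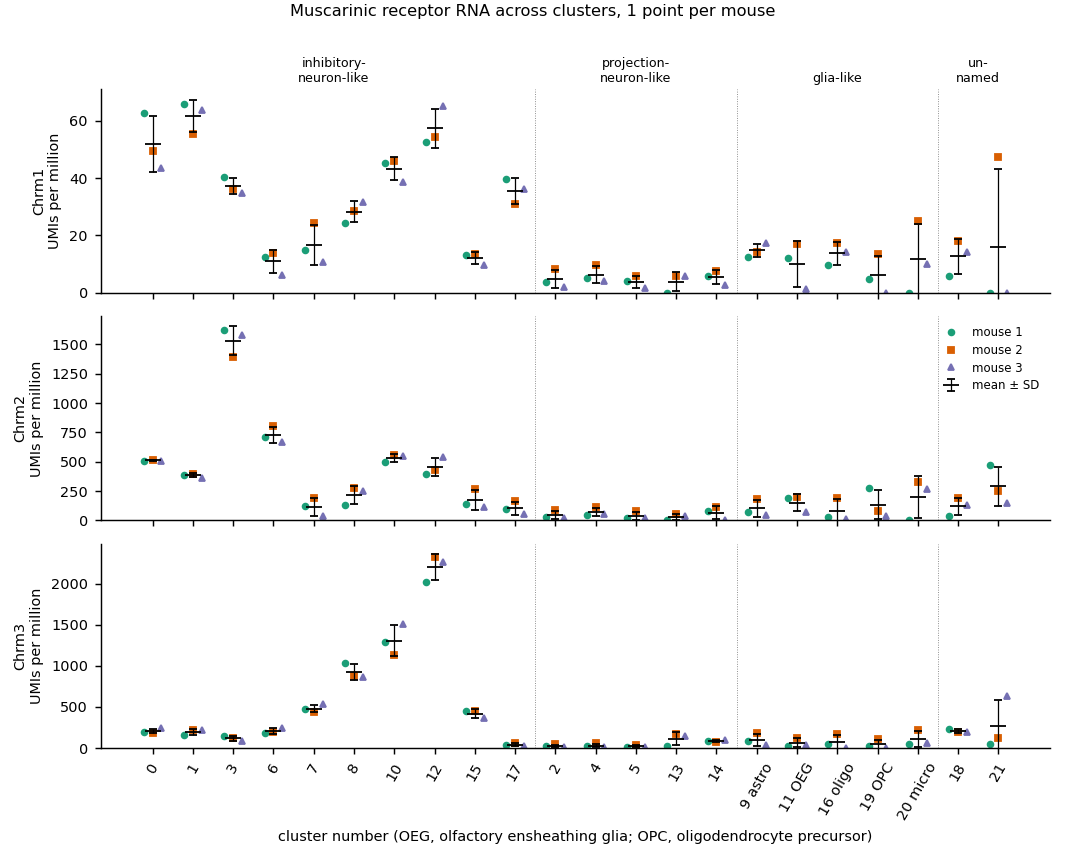
Levels of Chrm1, Chrm2 and Chrm3 in UMIs per 1000000 UMIs (y axis) by cluster (x axis, grouped by class), with 1 point per mouse and the mean ± SD over 3 mice. Chrm1 peaks at a mean of 61.7 in cluster 1, Chrm2 at 1533 in cluster 3 and Chrm3 at 2204 in cluster 12, all inhibitory-neuron-like.

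Nuclei were thinned to 3000 UMIs each, so that depth was equal, and shallower nuclei were left out (23 in cluster 12, 12 in cluster 3, 122 in cluster 1 and 161 in the astrocyte-like cluster). At that depth, 93.8% ± 0.37 of the nuclei of cluster 12 had a UMI of Chrm3 (SD over mice, 96.7% unthinned), against 6.38% ± 4.34 in the astrocyte-like cluster (11.7% unthinned). For Chrm2 the share was 81.2% ± 1.15 in cluster 3 (93.9% unthinned) and 9.79% ± 7.004 in the astrocyte-like cluster (12.5% unthinned). For Chrm1 it was 15.4% ± 0.87 in cluster 1 (31.6% unthinned, under the 34.5% of cluster 17, whose median depth was 16913 against 8007 UMIs) and 2.44% ± 1.11 in the astrocyte-like cluster (5.41% unthinned). In each case the thinned share was highest in the cluster with the highest summed level, but thinned to 5000 UMIs Chrm1 stood at 25.1% ± 3.29 in cluster 12 and at 24.3% ± 2.33 in cluster 1. The astrocyte-like share is given as that of a non-neuronal class in the same libraries. Among the 1136 astrocyte-like nuclei, 30 with at least 10 UMIs of Chrm2 held 54.9% of the gene's UMIs there. In these 30 nuclei the 8 inhibitory markers used for naming summed to 4423 CPM against 1995 CPM in the rest, and their median depth was 16463 against 5112 UMIs. Their part in the glial level was not tested further.

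**Figure D2:**
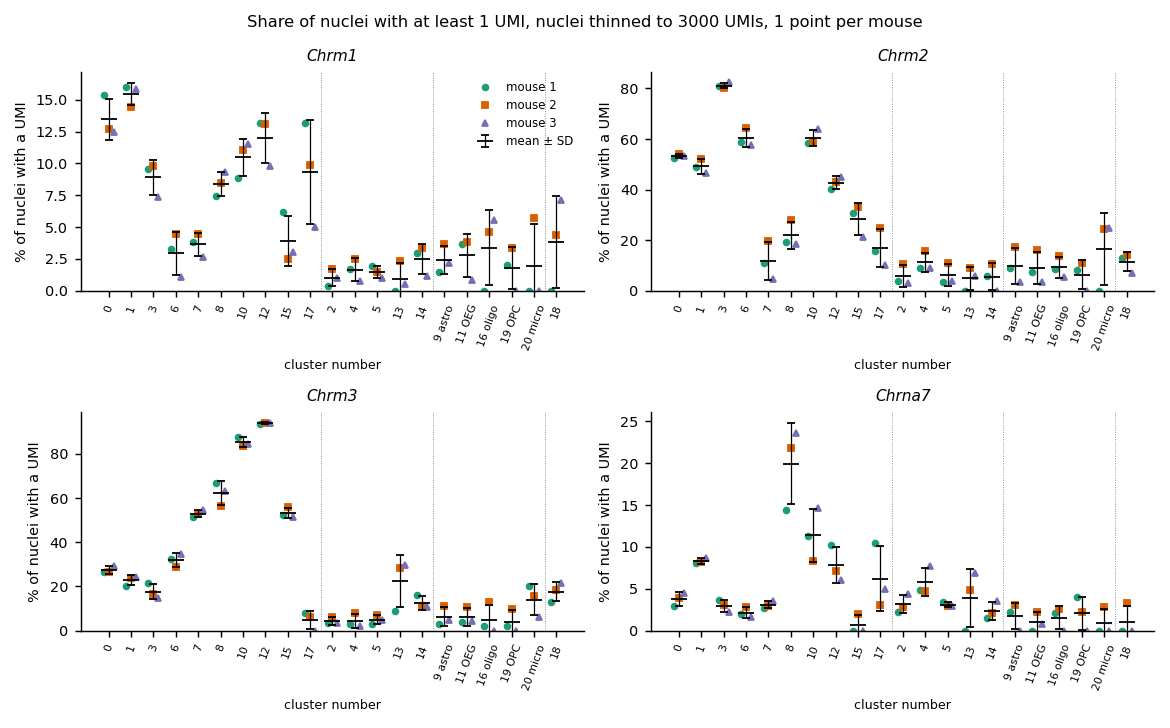
Percent of nuclei with at least 1 UMI (y axis) of Chrm1, Chrm2, Chrm3 and Chrna7 by cluster (x axis), after thinning each nucleus to 3000 UMIs, with 1 point per mouse and the mean ± SD over 3 mice. Chrm3 reaches 93.8% in cluster 12 and Chrm2 81.2% in cluster 3, whereas Chrm1 stays at or below 15.4% and Chrna7 reaches 19.96% in cluster 8.

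Within the projection neurons, 5 of the 7 genes tested differed between the 7 types (Chrm2, Chrm3, Chrna3, Chrna4 and Chrna7), where 64.8% of all genes did. Chrm1 (adjusted p = 0.0558, edgeR) and Chrnb2 (adjusted p = 0.104, edgeR) did not pass in this test. The adjusted p of Chrm1 ran from 4.96e-06 to 0.293 over 11 alternatives and was 0.0149 with the mouse as a block (edgeR). Of the 147 tests between 2 types, 54 passed, or 15 for Chrna3, 11 for Chrna4, 10 each for Chrm2 and Chrm3, 5 for Chrna7, 2 for Chrm1 and 1 for Chrnb2, against 28.4% of such tests over all genes. With each type set against the mean of the other 6, the genes called numbered 2 in ET1-like (8.61% of all genes called), 4 in ET2-like (13.8%), 5 in ET4-like (18.0%), 3 in T1-like (12.2%), 4 in M2-like (12.1%), 2 in M1-like (11.9%) and 1 in M3-like nuclei (8.57%). The count of the ET4-like type was 3 without mouse 1 and 3 without mouse 2, and that of the M2-like type was 2 without mouse 3 and 2 with DESeq2. The 4 genes of the ET2-like and the 2 of the M1-like type were all higher, where 7.64% and 7.81% of all genes were higher in these types. The 3 of the T1-like type were all lower, where 5.50% of all genes were. Over the 7 genes that passed the filter the median log2 fold change was 1.55 in the ET2-like, 0.54 in the M1-like, 0.16 in the ET4-like, -0.28 in the M3-like, -0.37 in the ET1-like, -0.93 in the M2-like and -1.48 in the T1-like type, while over all genes the medians lay between -0.05 and 0.04.

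Chrm3 was high in M1-like and ET2-like nuclei. In M1-like nuclei it stood at 0, 167 and 143 CPM in mice 1, 2 and 3, and in ET2-like nuclei at 82.2, 70.7 and 101 CPM. The other 5 types held means of 7.10 (T1-like) to 17.5 CPM (M3-like). The log2 fold change against the other types was 3.17 (SE 0.23, adjusted p = 7.07e-11, edgeR) for M1-like and 2.26 (SE 0.27, adjusted p = 2.40e-07, edgeR) for ET2-like nuclei. The pair of them did not differ by the test, at 0.78 (SE 0.34, adjusted p = 0.115, edgeR), and ET2-like nuclei exceeded the next type, M3-like, by 2.30 (SE 0.49, adjusted p = 0.00108, edgeR). Chrm3 was called lower in the T1-like (-1.68, SE 0.32), ET4-like (-1.47, SE 0.38) and M2-like type (-1.07, SE 0.31), the last not with DESeq2 (adjusted p = 0.100) nor without mouse 1 or mouse 3 (-0.98 and -0.95, edgeR).

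The 0 of mouse 1 in M1-like nuclei came from 161593 UMIs, which allow a level of up to 18.6 CPM, under the levels of both other mice. Its Chrna3 level of 37.1 CPM rests on 6 UMIs, and 14.3% of its 14 nuclei had a UMI of Chrna3, against 42.6% and 45.4% in mice 2 and 3. Without this library the log2 fold change of Chrm3 in M1-like nuclei was 3.40 (adjusted p = 7.20e-14, edgeR). In the M1-like type 453 of 686 nuclei had a UMI of Chrm3, and 60 nuclei with at least 10 UMIs held 41.4% of them. The remaining M1-like nuclei still held 105 CPM, and the 8 inhibitory markers described below summed to 638 CPM in the 60 and to 411 CPM in the rest, at a median depth of 26876 against 17353 UMIs. In the ET2-like type 95 of 471 nuclei had a UMI of Chrm3, and 10 of them held 48.8% of the 488 UMIs. The remaining ET2-like nuclei held 41.6 CPM, with inhibitory markers at 886 CPM in the 10 and 700 CPM in the rest and a median depth of 13788 against 11876 UMIs.

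Chrm2 had its highest mean in ET1-like nuclei, at 61.0, 65.3 and 58.3 CPM, with little spread between mice. T1-like nuclei held 4.67, 10.9 and 5.29 CPM, M2-like 6.20, 15.4 and 7.37 CPM and ET4-like 6.38, 14.9 and 11.9 CPM, all below every ET1-like value. ET1-like nuclei were higher than the other types by 1.71 (log2, SE 0.35, adjusted p = 0.000567, edgeR) and higher than T1-like nuclei by 3.04 (SE 0.50, adjusted p = 6.79e-05, edgeR). In this type 273 of 703 nuclei had a UMI of Chrm2 and only 4 had at least 10. The ET2-like type was called higher too (1.55, SE 0.38, adjusted p = 0.00245, edgeR), but its mice stood at 82.2, 91.9 and 4.94 CPM, and 11 of 471 nuclei held 65.0% of the 434 UMIs. The remaining ET2-like nuclei held 25.8 CPM. ET2-like nuclei were above ET1-like nuclei in mice 1 and 2, and the test of the pair did not pass (0.14, SE 0.48, adjusted p = 0.891, edgeR). M1-like nuclei held 0, 51.2 and 28.9 CPM, and 12 of 686 nuclei held 37.4% of these UMIs, with inhibitory markers at 1688 CPM in the 12 and 407 CPM in the rest and a median depth of 25343 against 17862 UMIs. In the order of levels M1-like and ET4-like nuclei were the one pair of neighbours that differed (1.83, SE 0.58, adjusted p = 0.0129, edgeR). Without mouse 1 or mouse 2 the ET2-like call was lost (adjusted p = 0.0873 and 0.0626, edgeR). Chrm2 was called lower in T1-like (-1.84, SE 0.42), M2-like (-1.30, SE 0.42) and ET4-like nuclei (-1.28, SE 0.48). The calls of M2-like and ET4-like nuclei were lost with DESeq2 (adjusted p = 0.129 and 0.113) and without mouse 1 or mouse 2 (adjusted p from 0.0528 to 0.186, edgeR), and that of ET4-like nuclei also with scaling by library size alone (adjusted p = 0.0589, edgeR).

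Because inhibitory nuclei hold far more Chrm2 and Chrm3, the 8 inhibitory markers were summed in each type. All 8 were above 0 in every type. The sums in mice 1, 2 and 3 were 204, 295 and 65.6 CPM in ET1-like and 103, 222 and 77.9 CPM in T1-like nuclei. They were 209, 426 and 174 CPM in ET4-like and 550, 928 and 186 CPM in ET2-like nuclei. M1-like nuclei held 316, 609 and 164 CPM, M2-like 102, 206 and 68.2 CPM and M3-like 381, 580 and 211 CPM. Values of single mice were 2183 to 6787 CPM in inhibitory-neuron-like and 200 to 2505 CPM in glia-like clusters. ET1-like nuclei thus held more inhibitory markers than T1-like nuclei in mice 1 and 2 and fewer in mouse 3, with more Chrm2 in all 3 mice. ET4-like nuclei had less Chrm2 than ET1-like nuclei in each mouse but held more of these markers in each. M3-like nuclei held more than M1-like nuclei in mice 1 and 3 and fewer in mouse 2. In the ET2-like type the markers moved with Chrm2: the 11 nuclei with at least 10 UMIs summed to 3093 CPM of inhibitory markers and the other nuclei to 600 CPM. The median depth of these 11 was 22193 UMIs against 11788 in the others. The part of inhibitory markers and of depth in the levels of Chrm2 and Chrm3 in these types was not tested. The unnamed subcluster 2, with 1912, 2151 and 1656 CPM of inhibitory markers, held 189, 249 and 156 CPM of Chrm2 and 138, 128 and 129 CPM of Chrm3. The periglomerular-like subcluster 9, with 9, 72 and 8 nuclei in mice 1, 2 and 3 and 1510, 2115 and 1018 CPM of inhibitory markers, held 141, 380 and 339 CPM of Chrm2, above every value of the projection neuron types, and 62.0, 123 and 138 CPM of Chrm3.

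Chrm1 was low in every projection neuron type, at means of 2.08 CPM (M2-like) to 5.61 CPM (M3-like). No type was called higher or lower and no neighbours in the order differed. Subcluster 2 held 15.0, 18.9 and 11.2 CPM.

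**Figure D3:**
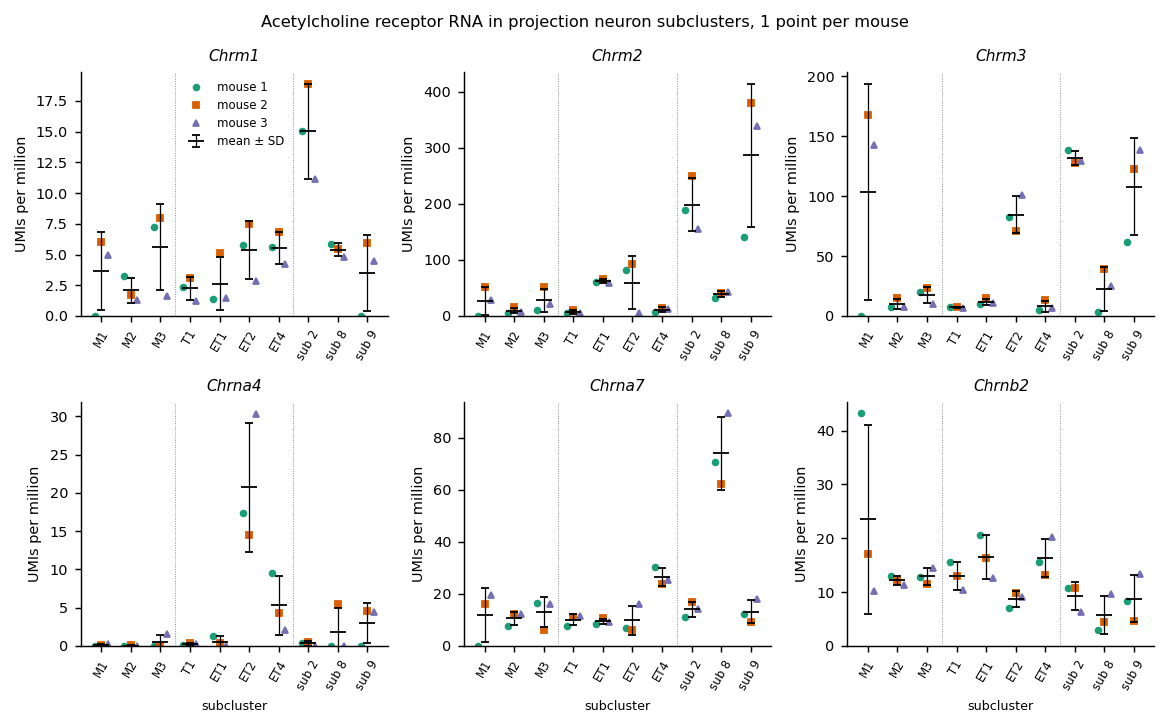
Levels of Chrm1, Chrm2, Chrm3, Chrna4, Chrna7 and Chrnb2 in UMIs per 1000000 UMIs (y axis) by subcluster (x axis, mitral types, tufted types, then subclusters 2, 8 and 9), with 1 point per mouse and the mean ± SD over 3 mice. Among the 7 projection neuron types Chrm2 has its highest mean in ET1-like nuclei, at 61.6, with ET2-like nuclei at 59.7. Chrm3 has its highest mean in M1-like nuclei, at 103 (155 over mice 2 and 3, with mouse 1 at 0). The periglomerular-like subcluster 9 stands at 287 for Chrm2 and 108 for Chrm3. Among the same 7 types the highest means are those of Chrna4 in ET2-like nuclei at 20.7 and of Chrna7 in ET4-like nuclei at 26.4.

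Chrna3, which encodes the alpha3 subunit, differed in more pairs of types than any other of the 7 genes tested, in 15 of 21. It lies in a cluster with the genes of its partner subunits on chromosome 9 (GENCODE M21, GRCm38): Chrna5 at chr9:54980880-55007779 on the plus strand, Chrna3 at chr9:55010111-55026562 on the minus strand and Chrnb4 at chr9:55028154-55048779 on the minus strand. The ends of Chrna5 and Chrna3 are 2331 bases apart, and 1591 bases separate the start of Chrna3 from the end of Chrnb4. The promoter windows of these neighbours are shown because the genes were all called higher in M1-like nuclei. Each runs from 250 bases before to 50 bases after a start site (RefSeq, GRCm38.p6), 5′ to 3′ on the strand of the gene, and capitals mark the GC box GGGCGG or its complement. The windows are chr9:55026513-55026812 (Chrna3, minus), chr9:55048495-55048794 (Chrnb4, minus), chr9:54980630-54980929 (Chrna5, first window, plus) and chr9:54981238-54981537 (Chrna5, second window, plus).
Chrna3: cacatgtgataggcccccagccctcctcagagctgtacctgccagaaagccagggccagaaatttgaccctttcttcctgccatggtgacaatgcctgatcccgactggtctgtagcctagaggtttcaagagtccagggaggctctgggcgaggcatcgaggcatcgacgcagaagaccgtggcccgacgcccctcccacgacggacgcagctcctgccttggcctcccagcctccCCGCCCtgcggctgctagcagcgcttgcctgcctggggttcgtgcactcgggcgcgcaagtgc
Chrnb4: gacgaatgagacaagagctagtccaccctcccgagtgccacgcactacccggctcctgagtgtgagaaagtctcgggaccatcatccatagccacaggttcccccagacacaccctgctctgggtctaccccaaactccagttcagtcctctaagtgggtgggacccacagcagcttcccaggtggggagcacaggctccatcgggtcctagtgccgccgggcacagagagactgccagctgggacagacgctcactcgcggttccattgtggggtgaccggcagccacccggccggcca
Chrna5 (first window): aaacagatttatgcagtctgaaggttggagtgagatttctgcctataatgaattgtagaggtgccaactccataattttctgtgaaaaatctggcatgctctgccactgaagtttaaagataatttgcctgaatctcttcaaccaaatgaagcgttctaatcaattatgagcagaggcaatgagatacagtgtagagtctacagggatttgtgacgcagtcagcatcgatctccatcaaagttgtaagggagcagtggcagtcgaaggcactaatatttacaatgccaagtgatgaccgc
Chrna5 (second window): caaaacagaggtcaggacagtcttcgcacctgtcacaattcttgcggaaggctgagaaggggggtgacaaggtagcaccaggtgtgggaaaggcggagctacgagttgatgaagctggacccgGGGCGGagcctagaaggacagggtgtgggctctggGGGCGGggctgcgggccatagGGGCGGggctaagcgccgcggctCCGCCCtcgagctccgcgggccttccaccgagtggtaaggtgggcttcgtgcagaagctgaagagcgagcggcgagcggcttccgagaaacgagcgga
Both strands were searched for GGGCGG, for TATAAA and for the palindromic core motif bound by Ebf factors. GC boxes numbered 1 in the Chrna3 window, 0 in that of Chrnb4 and 0 and 4 in the windows of Chrna5, and 35.7% of 32851 promoter windows held at least 1. TATAAA, held by 13.6% of windows, and the Ebf motif, held by 0.904%, were in none of these 4 windows nor in those of the 8 receptor genes with an entry (Chrm1 and Chrna2 have none). Chrna4 and Chrm4 had 3 and 4 GC boxes, Chrm2, Chrna7 and Chrnb2 had 1 each, and Chrm3 and Chrm5 had 0.

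Chrna3 stood at 37.1, 46.5 and 39.6 CPM in M1-like nuclei. It stood at 12.03, 15.2 and 16.3 CPM in the M2-like, at 21.8, 16.8 and 11.3 CPM in the M3-like type and at 15.0, 13.7 and 12.7 CPM in ET2-like nuclei. The T1-like, ET4-like and ET1-like types held means of 0.807, 0.803 and 0.219 CPM on 29, 7 and 4 UMIs, and none of their values reached those of the other 4 types. In the order of levels, M1-like nuclei differed from M3-like by 1.57 (SE 0.33, adjusted p = 0.00108, edgeR) and ET2-like from T1-like nuclei by 3.88 (SE 0.37, adjusted p = 4.60e-09, edgeR), and no other neighbours differed. Against the mean of the other types the log2 fold change was 3.83 (SE 0.21) in M1-like nuclei, 2.15 (SE 0.22) in the M2-like type, 1.99 (SE 0.35) in the M3-like type and 1.82 (SE 0.29) in the ET2-like type. It was -2.71 (SE 0.38) in T1-like, -3.11 (SE 0.50) in ET4-like and -3.97 (SE 0.53) in ET1-like nuclei, so that all 7 types were called. Without mouse 2 the T1-like and ET4-like values were -2.37 and -2.03. In that fit the ET1-like type, whose 4 UMIs all came from mouse 2, was at 0, so the mean of the other types had no lower limit and these 2 tests could not pass.

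Across clusters Chrna3 was called higher in the projection-neuron-like clusters 13 (36.8 ± 10.1 CPM), 5 (14.4 ± 1.41) and 14 (13.8 ± 1.18), which hold mainly M1-like, M2-like and ET2-like nuclei, and in the inhibitory-neuron-like cluster 8 (12.9, 6.55 and 9.73 CPM). All other inhibitory clusters held at most 2.504 CPM. In the oligodendrocyte-like cluster none of 2117261 UMIs was of Chrna3, which allows a level of up to 1.42 CPM.

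The partner genes had the same highest type. Chrna5 stood at 12.4, 17.1 and 12.2 CPM in M1-like nuclei and at most at 3.63 CPM in a mouse of any other named type (M1-like log2 fold change 4.93, SE 0.44, adjusted p = 1.97e-09, edgeR). The mouse 1 value is 2 UMIs. Chrna5 belongs to the study's own list for this type, which was chosen on these samples, and it was not used for naming here. Chrnb4 stood at 0, 10.5 and 11.95 CPM in M1-like nuclei (4.02, SE 0.40, adjusted p = 1.41e-08, edgeR), where the 0 of mouse 1 allows up to 18.6 CPM and so shows no detectable difference from the other mice. M2-like nuclei held 6.08, 3.68 and 5.49 CPM of Chrnb4 (2.90, SE 0.40), whereas ET2-like nuclei, at 1.16, 0.258 and 0.705 CPM, had 3 UMIs of Chrnb4 and 5 of Chrna5 in all. In cluster 8, Chrna5 was called higher too, at 5.46, 3.21 and 4.29 CPM (4.26, SE 0.57, adjusted p = 1.73e-07, edgeR). Of 686 M1-like nuclei, 294 had a UMI of Chrna3, 115 of Chrna5 and 65 of both, where the product of the shares gives 49.3. Chrnb4 was found in 101, and in 54 with Chrna3, where the product gives 43.3. Deeper nuclei hold more UMIs of any gene, so these counts are a description.

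**Figure D4:**
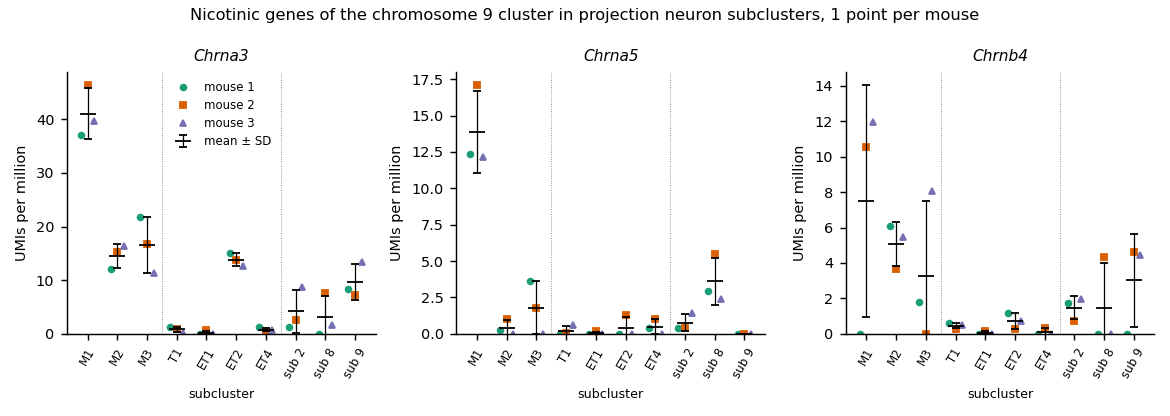
Levels of Chrna3, Chrna5 and Chrnb4 in UMIs per 1000000 UMIs (y axis) by subcluster (x axis), with 1 point per mouse and the mean ± SD over 3 mice. All 3 genes have their highest mean in M1-like nuclei, at 41.1, 13.9 and 7.50, and ET2-like nuclei hold Chrna3 at 13.8 with Chrna5 at 0.430 and Chrnb4 at 0.707.

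Chrna4, the alpha4 subunit gene, was highest in a pair of external tufted types. ET2-like nuclei held 17.4, 14.5 and 30.3 CPM and ET4-like nuclei 9.57, 4.28 and 2.10 CPM, without overlap. The remaining 5 types held means of at most 0.558 CPM, on 1 to 9 UMIs. The log2 fold change was 5.62 (SE 0.40, adjusted p = 2.07e-11, edgeR) for ET2-like and 3.34 (SE 0.47, adjusted p = 2.42e-06, edgeR) for ET4-like nuclei. ET2-like exceeded ET4-like nuclei by 1.95 (SE 0.47, adjusted p = 0.00182, edgeR), and ET4-like exceeded ET1-like nuclei by 3.23 (SE 0.72, adjusted p = 0.00128, edgeR). M2-like nuclei, with 1 UMI, were called lower (-3.88, SE 1.03), a call that was lost without mouse 3 (-2.90), where M3-like nuclei held no UMI, and with nuclei of at least 1500 genes (-3.22). Of 471 ET2-like nuclei, 78 had a UMI of Chrna4, 45 of Chrna3 and 15 of both, where the product of the shares gives 7.45. Depth differs between these nuclei too, so these counts are a description. Outside the projection neurons the oligodendrocyte-precursor-like cluster 19 was called higher, at 2.34, 12.2 and 0 CPM on 11 UMIs, 10 of them from mouse 2, and without mouse 2 the call was lost (2.64, adjusted p = 0.476, edgeR).

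Chrna7, the alpha7 subunit gene, was highest in inhibitory-neuron-like cluster 8, at 68.0, 98.3 and 107 CPM (2.61, SE 0.18, adjusted p = 8.65e-18, edgeR). Clusters 10, 12 and 1 followed at 47.8 ± 7.80, 39.7 ± 7.26 and 34.4 ± 3.21 CPM and were called higher as well, and cluster 8 differed from cluster 10 (0.91, SE 0.31, adjusted p = 0.0395, edgeR). Glia-like clusters held 4.60 to 9.13 CPM. In cluster 8, 19.96% ± 4.89 of nuclei thinned to 3000 UMIs had a UMI (33.4% unthinned), against 1.76% ± 1.57 in the astrocyte-like cluster. Among projection neuron types ET4-like nuclei were highest, at 30.3, 23.8 and 25.1 CPM, and were called higher (1.12, SE 0.23, adjusted p = 0.000287, edgeR). Without mouse 1 the fold change was 0.97, short of the threshold. The other types had means of 9.43 to 12.9 CPM. M1-like nuclei held 0, 15.9 and 19.5 CPM, so the place of this type depends on the library of mouse 1: its mean was 11.8 CPM over all mice, under the 12.9 CPM of the M3-like type, and 17.7 CPM over mice 2 and 3. ET4-like nuclei differed from M3-like (1.25, SE 0.42, adjusted p = 0.0315, edgeR), but the test against M1-like nuclei did not pass (0.49, SE 0.31, adjusted p = 0.213, edgeR), nor did those between the other neighbours. The unnamed subcluster 8, with 126 nuclei, held 70.6, 62.2 and 89.4 CPM, above every value of the named types.

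Chrna2, the alpha2 subunit gene, was found mostly in cluster 8, which held 111 of its 182 UMIs, at 19.4, 7.84 and 3.15 CPM. The next cluster mean was 0.579 CPM, in cluster 13. The mice differed widely, and the gene was not tested across clusters. Cluster 8 also had the highest mean of Chrna3 and Chrna7 among the inhibitory clusters and the third highest of Chrm3.

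Chrnb2 had the fewest calls among the genes tested. It stood at means of 8.64 (ET2-like) to 23.5 CPM (M1-like) in the types, where the M1-like mice were at 43.3, 17.0 and 10.2 CPM and the value of mouse 1 is 7 UMIs. Over mice 2 and 3 Chrnb2 stood at 13.6 CPM in M1-like nuclei, under its ET1-like and ET4-like means of 16.5 and 16.3 CPM over all mice. Across clusters its means ran from 1.18 CPM in the microglia-like to 21.7 CPM in cluster 13, and microglia-like nuclei were called lower (-2.45, SE 0.79, adjusted p = 0.0195, edgeR). They held 0, 3.55 and 0 CPM, and the call was lost under 5 of the alternatives, among them DESeq2 (adjusted p = 0.0886).

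**Figure D5:**
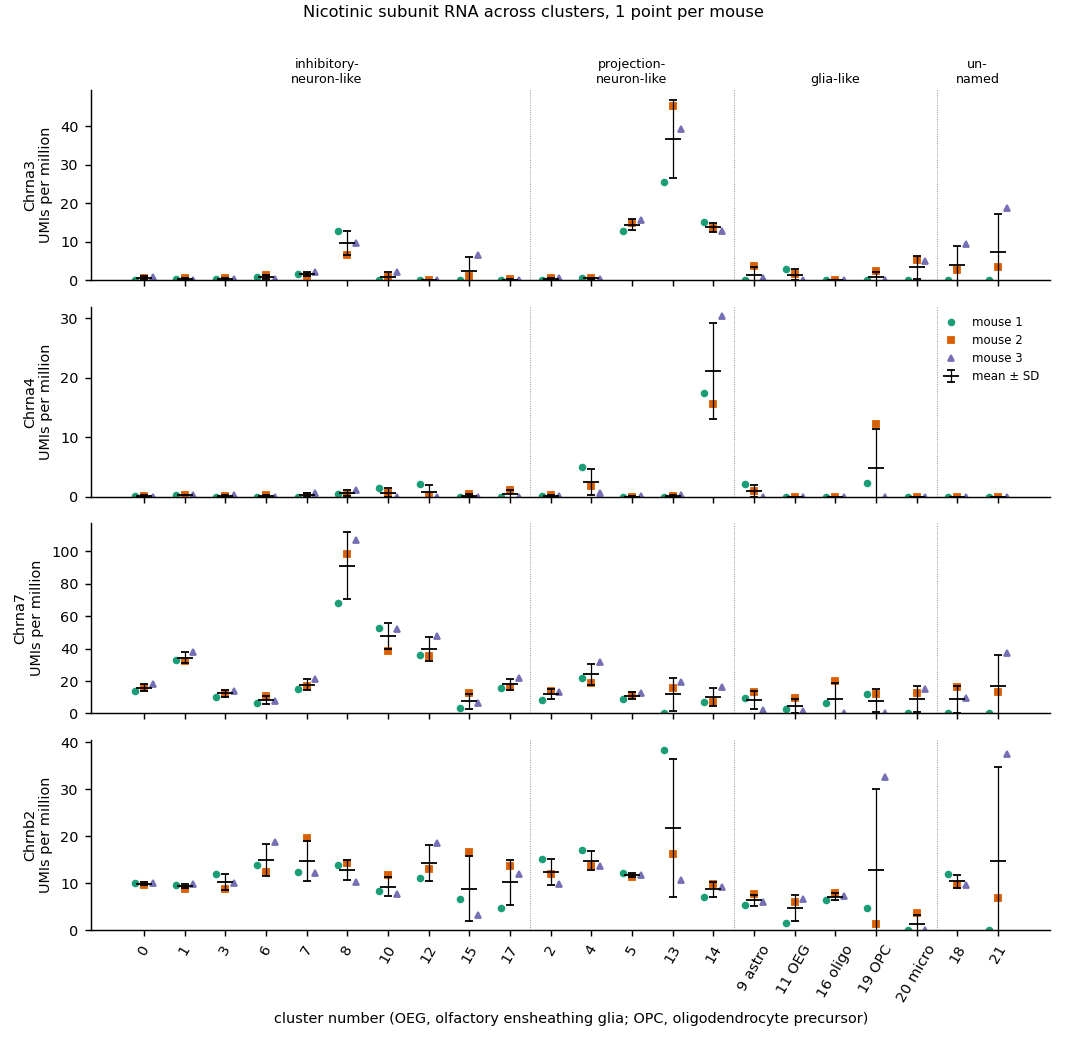
Levels of Chrna3, Chrna4, Chrna7 and Chrnb2 in UMIs per 1000000 UMIs (y axis) by cluster (x axis, grouped by class), with 1 point per mouse and the mean ± SD over 3 mice. Chrna3 peaks at a mean of 36.8 in projection-neuron-like cluster 13, Chrna4 at 21.1 in cluster 14 and Chrna7 at 91.2 in inhibitory-neuron-like cluster 8, while Chrnb2 has no such peak.

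Mitral against tufted types, as the mean of the 3 M-like against the mean of the 4 T- and ET-like types, gave 2 calls among the 7 genes, where 9.34% of all genes were called. Chrna3 was higher in mitral types (log2 fold change 3.98, SE 0.24, adjusted p = 7.13e-13, edgeR) and Chrna4 lower (-3.53, SE 0.64, adjusted p = 0.000101, edgeR). Chrna3 in the ET2-like type was not told apart from the M2-like (-0.28, SE 0.29, adjusted p = 0.492, edgeR) or the M3-like type (-0.15, SE 0.37, adjusted p = 0.841, edgeR). Chrm3 differed by 0.84 (SE 0.26, adjusted p = 0.0153, edgeR), under the threshold on the fold change. Chrm1, Chrm2, Chrna7 and Chrnb2 had values of 0.03, -0.07, 0.04 and -0.003 (SE 0.16 to 0.31), and each of these 4 changed sign under at least 1 alternative.

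Other genes of the cholinergic pathway were read from lists of 11 other nicotinic subunits, 7 genes of acetylcholine synthesis, loading, uptake and breakdown, 8 nicotinic chaperones and Ly6 family modulators, and 10 and 9 genes of Gq and Gi signalling. Over all genes the median log2 fold change was -0.02 for the M1-like, 0.02 for the ET2-like and 0.01 for the ET4-like type. The shares of all genes called higher and lower were 7.81% and 4.04% in M1-like, 7.64% and 6.18% in ET2-like, 8.72% and 9.32% in ET4-like, 5.17% and 3.44% in ET1-like, 6.83% and 5.29% in M2-like and 6.68% and 5.50% in T1-like nuclei. Of the other nicotinic subunits 3 were tested between types, with 2 higher in M1-like nuclei (Chrna5 and Chrnb4, list median 4.02) and none called in ET2-like nuclei (median -1.01). A gene can pass the filter on low counts through the libraries of the type where it is high. The count and the medians of this list therefore depend on the filter and are a description. Chrnb4 was called lower in ET4-like (-2.59, SE 1.01) and ET1-like nuclei (-3.48, SE 1.08). Against inhibitory neurons 6 were tested: Chrnb4 (4.33, SE 0.32) and Chrna6 (1.18, SE 0.40) were higher in projection neurons, and Chrna10 (-3.86, SE 0.33) and Chrnb1 (-1.09, SE 0.28) lower. Chrna10 stood at 17.8, 13.9 and 19.3 CPM in cluster 1.

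The genes that make and load acetylcholine were at or near 0 in these nuclei. Slc18a3, the vesicular acetylcholine transporter, had 0 of 335347971 UMIs, which allows up to 0.00895 CPM, and Chat, which encodes the enzyme that makes acetylcholine, reached a mean of at most 1.08 CPM in a cluster and stood at 0.731, 0.541 and 0.457 CPM in projection neurons, on 58 UMIs. Slc5a7, the choline transporter, was found mainly in the oligodendrocyte-precursor-like cluster 19, at 35.2, 45.3 and 16.3 CPM. Ache, which encodes acetylcholinesterase, was higher in ET2-like (1.80, SE 0.19) and M3-like nuclei (1.96, SE 0.22) and lower in ET1-like (-2.45, SE 0.28) and T1-like nuclei (-2.08, SE 0.21). The genes that anchor the enzyme differed too. Colq, its collagen tail, was higher in ET2-like nuclei (5.33, SE 0.81), and Prima1, its membrane anchor, in ET4-like (3.14, SE 0.40) and M1-like nuclei (2.29, SE 0.42). Prima1 was most abundant in the olfactory-ensheathing-glia-like cluster 11, at 394, 303 and 407 CPM. Of the 4 genes of this list that were tested between types, 2 were called in ET2-like nuclei, both higher (median 0.54), 2 in T1-like nuclei, both lower (median -0.99), and 1 in M1-like nuclei (median 0.78).

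Of 7 chaperones and modulators tested between types, 2 were called in M1-like nuclei, both lower, where 4.04% of all genes were (median -0.008): Lynx1, a membrane-anchored protein that dampens nicotinic receptors (-2.07, SE 0.19), and Ly6g6e (-2.05, SE 0.46). Ly6g6e was higher in ET4-like nuclei by 5.53 (SE 0.24), and it belongs to the study's own list for that type, chosen on these samples. Lynx1 was higher in ET1-like (1.18, SE 0.13) and M2-like nuclei (1.03, SE 0.12).

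In Gq signalling, 4 of 9 genes tested were higher in M1-like nuclei, where 7.81% of all genes were, and none lower (median 0.13): Plcb1 (1.86, SE 0.24) and Plcb3 (1.63, SE 0.57), which encode phospholipases, and Kcnq3 (1.70, SE 0.13) and Kcnq5 (1.12, SE 0.31), which encode M-type channel subunits. Plcb3 stood at 0, 3.35 and 1.99 CPM in M1-like nuclei, overlapping the 3.59, 1.71 and 2.79 CPM of ET4-like nuclei. It was at 0 in M3-like nuclei, so its fitted value depends on the prior count. The call of Plcb3 therefore does not mark M1-like nuclei as its highest type. Plcb1 stood at 254, 375 and 235 CPM and Kcnq5 at 49.5, 165 and 68.1 CPM in M1-like nuclei, against 22.4, 27.5 and 16.4 CPM and 24.3, 42.2 and 27.7 CPM in T1-like nuclei. In ET2-like nuclei Plcb2 (1.91, SE 0.52) and Kcnq5 (1.47, SE 0.30) were higher (median 0.35), with Kcnq5 at 77.5, 274 and 45.2 CPM. In T1-like nuclei 2 of 9 were lower, Kcnq3 (-3.95, SE 0.19) and Plcb1 (-2.36, SE 0.31), with a list median of -0.66. Against inhibitory neurons 4 of 10 were lower in projection neurons and none higher, where 13.9% and 15.4% of all genes were (median -0.35, over all genes 0.01), with Kcnq5 at -4.69 (SE 0.39) and Plcb1 at -4.12 (SE 0.28). Plcb1 stood at 66.2, 139 and 90.02 CPM in projection and 1687, 1840 and 1886 CPM in inhibitory neurons, and Kcnq5 at 30.3, 83.2 and 38.4 CPM and 1340, 1437 and 1385 CPM. The sums of inhibitory markers, given above, were higher in M1-like and ET2-like than in T1-like nuclei in each mouse. In M1-like and ET2-like nuclei both genes were highest in mouse 2, where the markers were highest in every named type. M3-like nuclei held more markers than M1-like nuclei in mice 1 and 3. Their Plcb1 stood at 81.7, 106 and 132 CPM and their Kcnq5 at 70.8, 71.5 and 40.3 CPM. M2-like nuclei held slightly fewer markers than T1-like nuclei in each mouse. Their Plcb1 stood at 83.4, 106 and 108 CPM and their Kcnq5 at 24.9, 42.7 and 34.2 CPM. The part of inhibitory markers in these calls was not tested.

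In Gi signalling, the channel subunit genes Kcnj6 (2.42, SE 0.19) and Rgs4 (2.06, SE 0.24), a regulator of G proteins, were the 2 of 9 genes called in ET1-like nuclei, both higher (median 0.03). ET2-like nuclei had Kcnj3 (2.54, SE 0.14) and Kcnj6 (1.62, SE 0.21) higher and none lower (median -0.04). M2-like nuclei had Kcnj6 (-3.42, SE 0.29) and Rgs4 (-1.67, SE 0.30) lower and none higher (median -0.22). ET4-like nuclei had Kcnj6 higher (1.94, SE 0.20), and Kcnj3 (-1.44, SE 0.19) and Adcy5 (-2.86, SE 0.22) lower. Against inhibitory neurons 4 of 9 genes were lower in projection neurons, where 13.9% of all genes were, namely Gnai1, Gnai3, Kcnj3 and Kcnj6, and Adcy5 was higher (1.61, SE 0.12).

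The genes most like each receptor gene were ranked by Pearson's r of mean log2(CPM + 5) over the 21 clusters. The points share the 3 libraries, so r is a description. For Chrm2 the nearest was 9330158H04Rik (r = 0.951), a long noncoding RNA gene on the opposite strand that overlaps Chrm2, and next Frmd7 (0.916) and Neto1 (0.910). 9330158H04Rik stood at 305, 298 and 278 CPM in cluster 3 and at 140, 141 and 111 CPM in cluster 6. Chrm3 was nearest to Camk1g (0.881), Sp9 (0.835) and Prr16 (0.816), and Chrm1 to Rbfox3 (0.939), Chsy3 (0.924) and Fam163b (0.918). Chrna3 was nearest to Zdbf2 (0.903), Ptger3 (0.897) and Kcng1 (0.880). Chrna4 was nearest to B230323A14Rik (0.968), Trp73 (0.931) and Gm10578 (0.928), and Chrna7 to Pcdh8 (0.837), Gpr26 (0.804) and A830018L16Rik (0.800). For Chrnb2 the nearest were Hdgfl3 (0.850), Ulk1 (0.830) and 4931428F04Rik (0.828). Among the receptor genes themselves the highest r was 0.756, of Chrm1 with Chrm2, and the lowest -0.52, of Chrm2 with Chrna3.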

How the data were processed

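Nuclei were sorted, sequenced with 10x Chromium 3′ v3 chemistry and counted by the authors on mm10 with Cell Ranger, version 3.0.2 according to the headers. The deposited matrices hold counts of UMIs per gene and barcode, and the deposited table gives each retained nucleus its cluster (resolution 0.3), its subcluster (0.5) and its percent of mitochondrial UMIs. The authors kept nuclei with 1000 or more genes and no more than 5% of UMIs from mitochondrial genes, which left 31703 of the barcodes of 3 mice. Doublets were gated out at the sort per the study's methods, and no doublet caller was run here. Of the barcodes, 39, 8 and 35 were shared between libraries 1 and 2, 1 and 3, and 2 and 3. The table's 6 other numeric columns were not used.

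Clusters and subclusters were named from marker lists. A marker counted as carried at 25% (clusters) or 50% (subclusters) of its highest level, floors set after values were seen, and a name needed 3 carried markers, no more leading genes from another list than from its own and, unless a marker was among the 10 leading genes, a median depth of at least 0.333 of that of its mice. Cluster 21 carried 8 of 8 inhibitory markers but had a depth of 0.28 and stayed unnamed. Cluster 18 met the rule for endothelial cells but stayed unnamed, since its leading genes include Dcn and Slc6a13, markers of other cells. Because names were rebuilt here, levels may differ from those under the study's own names. Receptor genes, marker lists and pathway lists were chosen with earlier results of these data known. The named genes are the 10 receptor genes, the genes of the pathway lists and the 3 genes most like each receptor gene.

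UMIs were summed per mouse and cluster or type (at least 10 nuclei) and tested with edgeR 4.0.16 in R 4.3.3 (filterByExpr, TMM, quasi-likelihood F test, Benjamini-Hochberg adjustment over all genes), with 1 group of 3 mice. Calls needed both an adjusted p under 0.05 and a log2 fold change beyond 1 in size. Tests of any difference and of pairs used the adjusted p alone. The study itself tested single nuclei with another package. The script was tested on simulated counts with known changes. CPM used no TMM factor, thinning and shares used Python 3.11.15, and a count of 0 allows 3 counts. Limits and intervals cover counting error only.

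The libraries of 1 mouse come from the same animal. Deviations of libraries from their group means correlated at a mean r of 0.108 within a mouse and -0.0535 between mice for the types, 0.275 and -0.138 for projection and inhibitory neurons, and 0.0846 and -0.0417 for clusters. Alternatives were RLE or library-size scaling, DESeq2 1.42.0, no filter, the mouse as a block, leaving out each mouse, nuclei with at least 1500 genes, all subclusters in the fit, other thinning and, chosen after seeing the data, leaving out the M1-like library of mouse 1 or inhibitory cluster 8. Gene models were from GENCODE M21 and promoter windows from RefSeq.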

Additional observations from a re-analysis of the deposited data

How the results depend on the processing

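Counts of called receptor genes, taken over all types, pairs or clusters of a comparison, stayed within 1.5 times of the reported ones under every alternative run, while those of the ET4-like and M2-like types did not: ET4-like nuclei went from 5 to 3 without mouse 1 and to 3 without mouse 2, and M2-like nuclei from 4 to 2 without mouse 3 and to 2 with DESeq2. Of the single-gene results 875 kept their direction and side of the threshold, 39 lost the call, 8 gained it and 11 changed sign. With the mouse as a replicate block 6 instead of 5 genes differed between types and 63 instead of 54 pairs passed, where 70.3% of all genes and 32.8% of all such tests passed in that fit. Beside those pairs, the block changed only the call of Chrm1 between types. The 11 changes of sign were all of genes close to 0 between mitral and tufted types: Chrm1 (-0.22 without replicate 1 to 0.45 without replicate 2, and -0.056 with at least 1500 genes per nucleus), Chrm2 (-0.29 without replicate 2 to 0.060 without replicate 1), Chrna7 (-0.00519 without replicate 3 to 0.133 without replicate 2) and Chrnb2 (0.019 with RLE scaling, 0.0037 with library size, 0.037 with DESeq2, 0.0078 without a filter, 0.015 with the block, -0.023 without replicate 2 to 0.054 without replicate 3 and 0.024 with all subclusters). Shares of nuclei with a UMI moved with depth, as thinning removes UMIs. From 3000 to 5000 UMIs and then no thinning, they were 15.4%, 24.3% and 31.6% for Chrm1 in cluster 1, 81.2%, 88.0% and 93.9% for Chrm2 in cluster 3, 93.8%, 96.8% and 96.7% for Chrm3 in cluster 12, 1.90%, 3.37% and 4.88% for Chrna2 in cluster 8 and 4.44%, 8.32% and 19.3% for Chrna4 in cluster 14. From 3000 UMIs to no thinning, they were 6.82% and 32.2% for Chrna3 in cluster 13, 19.96% and 33.4% for Chrna7 in cluster 8 and 6.91% and 20.2% for Chrnb2 in cluster 13. Chrm4, Chrm5, Chrna2 and Chrna4 had 2 to 275 UMIs each, the lowest totals of the 10 genes.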
